A study of Arabidopsis thaliana with 4 samples.

Results

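OPCL1 and ORA47 are 2 genes of the jasmonate pathway of Arabidopsis thaliana, and their transcript levels were followed on 4 arrays. They were chosen by name, as an enzyme gene of jasmonate synthesis and a transcription factor gene of the jasmonate response, with their values in these arrays already known. The comparison of dexamethasone with no dexamethasone is therefore given for both as a description without a test. OPCL1 (AT1G20510) was read by probe set 259518_at and ORA47 (AT1G74930) by probe set 262211_at, and each gene had 1 probe set matched to it. They are 2 of the 13355 genes that could be named through a probe set of their own.

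The dexamethasone arrays held RNA from shoot apices of Ws-0 seedlings carrying 35S:LEC1-GR given 30 µM dexamethasone in their liquid medium for 1 h (2 arrays). The untreated arrays held apices of the same Ws-0 35S:LEC1-GR line kept in the medium without dexamethasone (2 arrays). All seedlings were 8 days old. LEC1 is a regulator of embryo development, the 35S promoter drives the fusion in most plant tissues, and the glucocorticoid receptor domain (GR) holds the protein inactive until dexamethasone binds it. Both groups carried the fusion, so effects of dexamethasone itself and of active LEC1-GR cannot be told apart. The replicates are biological, per the design text of the series.

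Jasmonates are lipid hormones made from linolenic acid, first in the plastid and then in the peroxisome. OPCL1 is a peroxisomal ligase that joins coenzyme A to the cyclopentanone acid precursor, which lets beta-oxidation shorten it to jasmonic acid. The isoleucine conjugate of jasmonic acid is perceived by COI1 with JAZ repressors, whose removal frees MYC transcription factors. ORA47 is an AP2/ERF transcription factor known to bind and activate genes of jasmonate synthesis. In leaves and seedlings the pathway is known for fast induction by wounding and touch.

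Values are log2 RMA expression values, 1 per probe set and array. As a mark of dim signal, the brightest of the 27 Bacillus control probe sets on each array (4.68 to 4.86) was used and is called the control level. Across probe sets the correlation was 0.992 between the dexamethasone arrays and 0.983 between the untreated arrays. YAB3, a gene of young leaf polarity, lay at 7.81 and 7.66 with dexamethasone and at 7.79 and 7.82 without it. CLV3, which marks the few stem cells of the shoot apex, did not exceed the control level on 2 dexamethasone arrays and 1 untreated array. The other 10 shoot apex markers listed, and LEC1 itself, were not analysed here. A lower value in this tissue may come from fewer cells of a type or from less RNA per cell, which cannot be told apart.

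OPCL1 was higher with dexamethasone, and ORA47 was dim on 3 of the 4 arrays and high on 1 untreated array. OPCL1 stood at 10.19 and 9.72 with dexamethasone, against 8.24 and 8.04 without it. Both dexamethasone arrays lay above both untreated arrays, as was the case for 22.3% of the 22746 probe sets tested. Its mean was 9.95 ± 0.33 with dexamethasone and 8.14 ± 0.14 without it (SD, n = 2 each), a log2 difference of 1.81 ± 0.20 (SE of the fit across all probe sets) or 3.51-fold. Of the 22746 probe sets, 115 had a larger rise.

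The transcript of ORA47 stood at 4.96 and 5.35 with dexamethasone, against 6.73 and 5.21 without it. The groups overlapped, since dexamethasone replicate 2 lay above untreated replicate 2. Its mean was 5.15 ± 0.28 with dexamethasone and 5.97 ± 1.08 without it (SD, n = 2 each), a log2 difference of -0.82 ± 0.51 (SE). Untreated replicate 1 lay 2.05 above its control level on the log2 scale, while the other arrays lay 0.22, 0.56 and 0.34 above theirs (dexamethasone replicates 1 and 2 and untreated replicate 2).

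**Figure D1:**
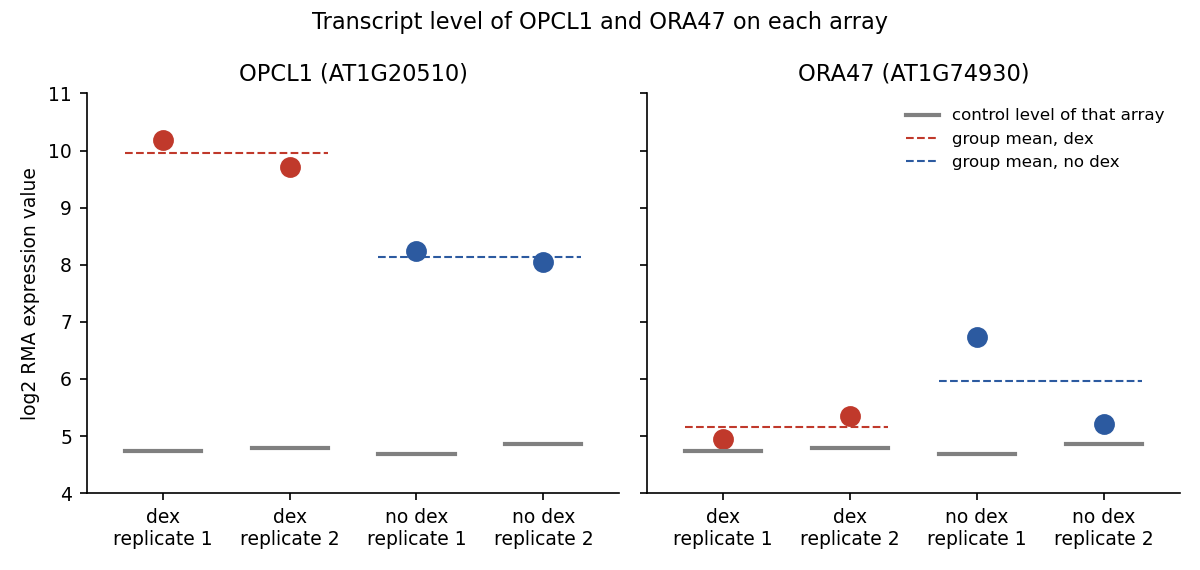
Log2 RMA expression values of OPCL1 and ORA47 (vertical axis) on each of the 4 arrays, with the group mean as a dashed line and the control level of each array as a grey bar. OPCL1 lies above 9.7 on both dexamethasone arrays and near 8.1 on both untreated arrays, while ORA47 is high at 6.73 on untreated replicate 1 only.

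The difference of ORA47 rested on that 1 untreated array. Without untreated replicate 1 it was -0.05, and without untreated replicate 2 it was -1.58. The untreated arrays differed by 1.53 for ORA47, and only 1.09% of all probe sets showed a gap as large between those arrays. For OPCL1 the same gap was 0.20, which 45.0% of probe sets reached. The dexamethasone arrays differed by 0.47 for OPCL1 and by 0.39 for ORA47, gaps that 8.49% and 12.8% of probe sets reached. The difference of OPCL1 lay between 1.58 and 2.04 whichever array was left out.

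The wider pathway was read from 5 lists of jasmonate genes, which held 74 genes besides OPCL1 and ORA47. Of these, 11 had a probe set matched to them alone, and the other 63 were not analysed here. None of the 16 genes of perception and repression (COI1, the JAZ genes and their partners) was among the 11. In limma with Benjamini-Hochberg adjustment over all probe sets, 0 of the 11 were called higher and 0 lower, against 1.49% and 0.879% of all probe sets. At an unadjusted p under 0.05 in the same fit, 3 were higher and 0 lower, against 8.79% and 8.37% of all probe sets. An unmoderated test on each probe set called 0 of all 22746, so its 0 of the 11 carries no information. The median difference was 0.13 for the 11 genes and -0.02 for all probe sets tested. In 5 of the 11 the dexamethasone arrays lay above both untreated arrays and in 1 below them, against 22.3% and 24.8% of all probe sets. Of the 11, 4 lay at or below the control level on all arrays, among them AT3G11180, which is 1 of the 5. Another 2 did so on some arrays.

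Of the 24 genes of synthesis, 3 were measured. AIM1, of the peroxisomal beta-oxidation that follows the OPCL1 step, stood at 9.66 and 9.91 with dexamethasone, against 9.91 and 10.28 without it. Its difference was -0.31 ± 0.18, and it did not pass the test (limma adjusted p = 0.498). DGL, a plastid lipase gene, and JMT, which encodes the methyltransferase that makes methyl jasmonate, lay at or below the control level on all 4 arrays.

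Of the 10 genes listed for the breakdown of jasmonates, 4 were measured, and none passed the limma test. AT3G11180, listed with the jasmonate oxidase genes, lay at or below the control level on all 4 arrays, so the order of its values carries no level. The other 3 had both dexamethasone arrays above both untreated arrays, an order that 22.3% of all probe sets showed. AT5G05600, listed here as a jasmonate oxidase gene, stood at 9.62 and 10.07 with dexamethasone, against 8.32 and 6.97 without it, a difference of 2.20 ± 0.46 or 4.61-fold (limma adjusted p = 0.0919). AT2G38240, listed with it, stood at 8.24 and 8.21 with dexamethasone, against 7.96 and 5.10 without it (1.69 ± 0.91, limma adjusted p = 0.445). JRG21, named in the reference table as a jasmonate-regulated gene, stood at 5.77 and 6.43 with dexamethasone, against 5.48 and 4.27 without it (1.22 ± 0.45, limma adjusted p = 0.263). In all 3 the low array was untreated replicate 2, on which JRG21 lay below the control level. Set to that level, the difference of JRG21 was 0.93.

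The calls of these 3 breakdown genes turned on which untreated array was kept. Without untreated replicate 1 all 3 passed the limma test, with differences of 2.88 for AT5G05600 (limma adjusted p = 0.0123), 3.13 for AT2G38240 (0.00866) and 1.83 for JRG21 (0.0365). That fit called 3.23% of all probe sets higher and 2.01% lower, more than the 1.49% and 0.879% with all arrays. Without untreated replicate 2 the differences were 1.53, 0.26 and 0.62, and none passed (limma adjusted p = 0.0527, 0.497 and 0.379). ORA47 was also lower on untreated replicate 2 than on untreated replicate 1, but with another pattern. Its untreated replicate 2 (5.21) lay between the dexamethasone arrays (4.96 and 5.35), and untreated replicate 1 (6.73) stood apart. OPCL1 differed by 1.91 and 1.71 in these 2 fits.

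**Figure D2:**
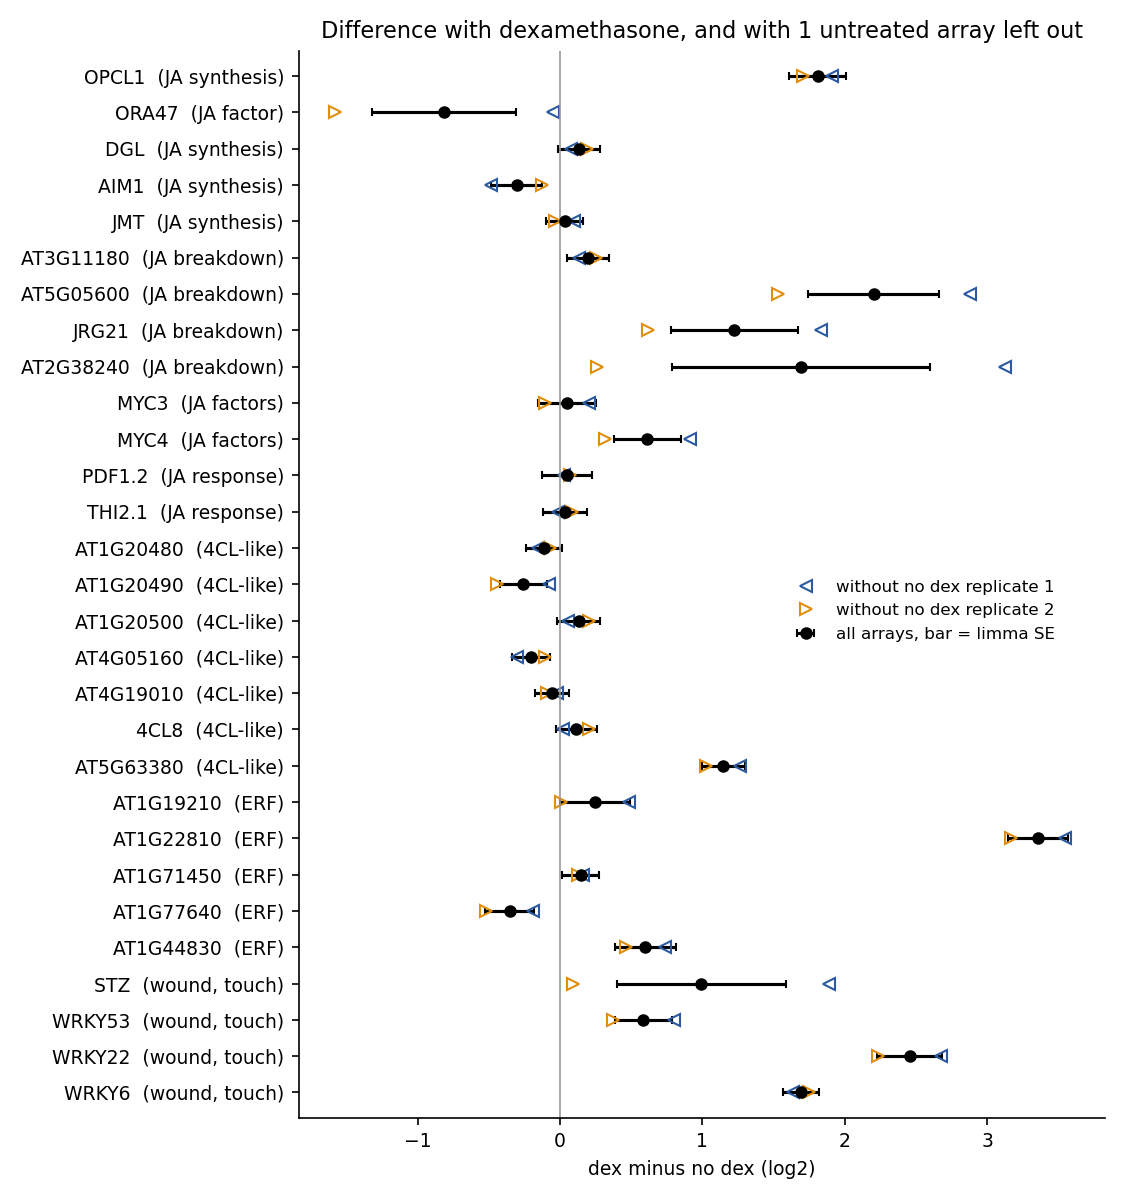
Log2 difference of dexamethasone minus no dexamethasone (horizontal axis) for OPCL1, ORA47 and the measured genes of the jasmonate (JA), 4CL-like, ERF and wound lists, with bars for limma's SE. Open triangles give the difference with 1 untreated array left out. The triangles lie far apart for ORA47 (-0.05 and -1.58) and AT2G38240 (3.13 and 0.26), and close together for OPCL1 (1.91 and 1.71).

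Among the transcription factor genes 2 of 15 were measured. MYC4, a bHLH partner of MYC2, stood at 6.66 and 6.43 with dexamethasone, against 6.23 and 5.64 without it. That difference of 0.61 ± 0.23 was not called (limma adjusted p = 0.278). It came to 0.91 with untreated replicate 1 left out and 0.32 with untreated replicate 2 left out. MYC3, which acts beside MYC4, had a difference of 0.05 ± 0.20. Of the 9 response genes, PDF1.2 (a plant defensin) and THI2.1 (a thionin) were measured, with differences of 0.05 ± 0.18 and 0.03 ± 0.16. Both lay near or below the control level.

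OPCL1 belongs to the family of 4-coumarate:CoA ligases and their relatives (4CL and 4CL-like genes), which join coenzyme A to plant acids. Of 12 listed relatives 7 were measured, and 1 was called higher and 0 lower, against 1.49% and 0.879% of all probe sets (3 of 7 had differences above 0, with a median of -0.06). AT5G63380 rose to 8.12 and 8.30 with dexamethasone, against 7.18 and 6.94 without it, by 1.15 ± 0.15 or 2.21-fold (limma adjusted p = 0.0406). That call ended without untreated replicate 2 (1.02, limma adjusted p = 0.0625). Without dexamethasone replicate 1 or 2 limma called no probe set on the arrays, and the difference of AT5G63380 was then 1.24 and 1.06 (limma adjusted p = 0.237 and 0.242).

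None of the measured genes next to OPCL1 in the reference gene table was called. The 3 genes listed just before it, AT1G20480, AT1G20490 and AT1G20500, are 4CL-like genes themselves, with differences of -0.11 ± 0.13, -0.26 ± 0.17 and 0.13 ± 0.15. AT1G20490 stood at 7.16 and 7.15 with dexamethasone, against 7.60 and 7.23 without it, and AT1G20500 lay at or below the control level on all 4 arrays. The 4 genes that follow OPCL1 had differences of -0.33 to 0.05. The limma adjusted p of these 7 neighbours lay between 0.29 and 0.97. Binding of a relative's transcript by the OPCL1 probes was not tested. Around ORA47, 5 of the 8 nearest genes were measured, with differences of -0.38 to -0.03 and no call.

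Of 12 genes listed as relatives of ORA47 within the AP2/ERF family, 5 were measured. AT1G22810 rose to 9.10 and 9.51 with dexamethasone, against 6.14 and 5.76 without it, by 3.36 ± 0.21 (limma adjusted p = 0.0228). Its difference was 3.56 and 3.15 without dexamethasone replicates 1 and 2, fits that called no probe set at all (limma adjusted p = 0.234 and 0.206). It was the 1 gene called higher of the 5, and 0 were called lower, against 1.49% and 0.879% of all probe sets. AT1G44830 had a difference of 0.60 ± 0.22, AT1G19210 of 0.24 ± 0.25, AT1G71450 of 0.14 ± 0.13 and AT1G77640 of -0.36 ± 0.17, none of them called. On untreated replicate 1, where ORA47 was high, all 5 lay above untreated replicate 2. Their gaps of 0.04 to 0.48 were smaller than the 1.53 of ORA47, and 51.1% of all probe sets had a gap in that direction.

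The apices of both groups were dissected from the seedlings, and whether wounding had a part in any difference was not tested. Of 15 early wound and touch genes listed beside the jasmonate genes 4 were measured. WRKY22 (2.46 ± 0.23, limma adjusted p = 0.0286) and WRKY6 (1.69 ± 0.13, limma adjusted p = 0.0228), both transcription factor genes of defence, were called higher, 2 of 4 against 1.49% of all probe sets. This list, like the others here, was written with earlier results of these data known, so its count is a description and no test of wound genes. Without dexamethasone replicates 1 and 2 their differences were 2.23 and 2.68 for WRKY22 and 1.72 and 1.67 for WRKY6, uncalled like all other probe sets in those fits (limma adjusted p = 0.234 and 0.206). WRKY53, of senescence and defence, had a difference of 0.59 ± 0.20 and was not called (limma adjusted p = 0.228). STZ, a stress zinc finger gene, stood at 11.21 and 10.77 with dexamethasone, against 10.90 and 9.10 without it. STZ was lowest on untreated replicate 2, as were the 3 breakdown genes. Its difference was 1.89 with untreated replicate 1 left out and 0.09 with untreated replicate 2 left out.

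**Figure D3:**
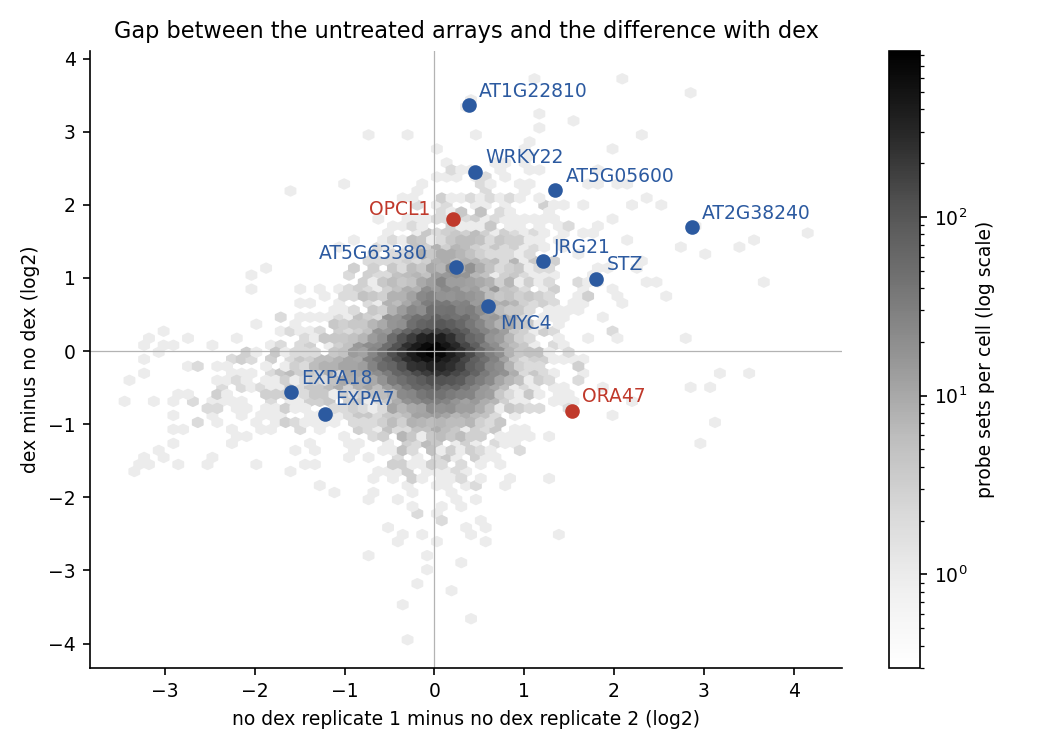
Each probe set's gap between untreated replicates 1 and 2 (horizontal axis, log2) against its difference of dexamethasone minus no dexamethasone (vertical axis, log2), with grey shading for the number of probe sets and dots for named genes. ORA47 lies at 1.53 on the horizontal axis with a difference of -0.82, and OPCL1 at 0.20 with 1.81.

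Root hair genes were highest on untreated replicate 2. EXPA7, of root hairs, stood at 4.59 and 4.97 with dexamethasone, against 5.03 and 6.25 without it, and EXPA18 at 4.98 and 5.20, against 4.86 and 6.46. Of 9 root markers 5 were measured. Their mean level was 5.76 and 5.95 with dexamethasone, against 5.80 and 6.57 in untreated replicates 1 and 2. PYK10 alone among them was high on all arrays and raised that mean. It stood at 11.8 and 12.0 with dexamethasone, against 11.6 and 12.3 without it, a difference of -0.006. AGL21 and AGL42 did not exceed the control level on any array. The leaf genes RCA and LHCB4.1 lay between 13.28 and 13.59 on all arrays. Whether root tissue had a part in the values of ORA47 or the breakdown genes was not tested.

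The 5 genes nearest to OPCL1 were found from their 4 values, each centred on the gene's own mean, by Euclidean distance on the log2 scale among 13354 genes. They were AT1G33600 (distance 0.049), AT4G39670 (0.14), AT5G15950 (0.18), AT3G05320 (0.19) and AT1G61380 (0.21), an S-domain receptor kinase gene. Their differences were 1.80 to 1.93, beside 1.81 for OPCL1, a closeness that follows from how they were chosen. AT1G33600 stood at 10.84 and 10.40 with dexamethasone, against 8.86 and 8.68 without it. In all, 50 genes lay within 0.5 of OPCL1. None of the 11 measured jasmonate genes was among the nearest 5, which carries no information with so few of them among 13354 genes.

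ORA47 had fewer close neighbours, with 13 genes within 0.5. The nearest were AT4G28140 (distance 0.20), AT2G29500 (0.27), AT2G46250 (0.29), AT1G10770 (0.32) and petL (0.32), a plastid-encoded gene of the cytochrome b6f complex. Like ORA47, each of these was highest on untreated replicate 1, which follows from choosing them by distance. AT4G28140 stood at 4.59 and 4.76 with dexamethasone, against 6.11 and 4.62 without it, and exceeded the control level on untreated replicate 1 only. AT1G10770 lay at or below that level on 1 array of each group. Over 4 arrays such likeness is a description of these samples alone.

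**Figure D4:**
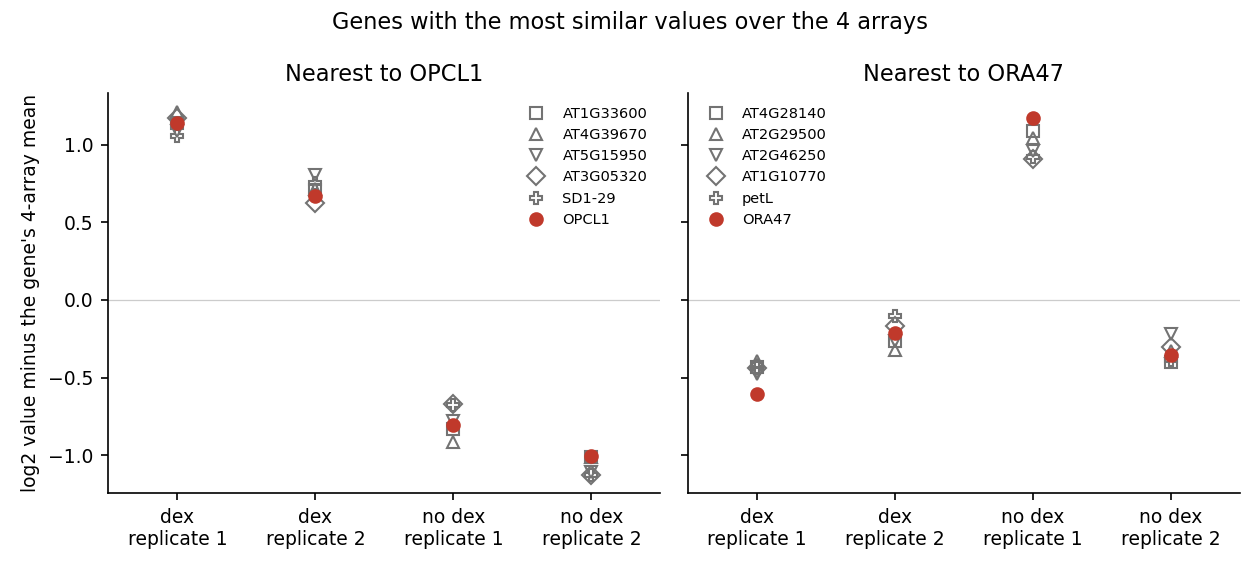
Log2 value minus the gene's own mean over the 4 arrays (vertical axis) for OPCL1 and ORA47 (red) and the 5 genes nearest to each (grey, open). The genes near OPCL1 are high on both dexamethasone arrays, and those near ORA47 are high on untreated replicate 1 only.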

How the data were processed

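Each deposited value is a log2 expression level of 1 probe set on 1 array. The authors used RMA and the affy package, per the submitters' processing notes. Their versions, filters and detection calls were not stated in the labels. Since RMA gives the probe intensities of all arrays a common distribution before it forms the probe set values, a change common to every transcript is hidden. Arrays have no sequencing depth, and their number (4) limits the precision. The 64 control probe sets were left out of the 22810. In the 22746 tested, 13513 probe sets had 1 gene, 503 had several and 8730 had none named here. Symbols were taken from the reference gene table. A gene was represented by its brightest probe set. Dexamethasone was set against no dexamethasone with limma (version 3.58.1, R 4.3.3), using lmFit and eBayes, two-sided, without a block, at an adjusted p threshold of 0.05. The fit was tested on simulated data first. No sequences are shown. OPCL1, ORA47, the 13 lists and the tests were chosen with earlier results of these data known. Named were OPCL1 and ORA47, all measured jasmonate genes, the called and the extreme members of the related lists, the markers, and the 5 nearest genes. The alternatives covered a replicate block, arrays left out, dim probe sets, scaling, moderation, thresholds and the control level as a floor. The floor on genes other than OPCL1 and ORA47 was added after seeing the data.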

Additional observations from a re-analysis of the deposited data

How the results depend on the processing

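OPCL1 and ORA47 kept their direction in every setting run. Leaving out 1 array gave 1.58 to 2.04 for OPCL1 and -1.58 to -0.05 for ORA47, which was dropped with the dimmest 50% of probe sets. With the replicate number as a block the differences stayed at 1.81 and -0.82, and limma called 559 probe sets higher and 300 lower, against 339 and 200 without it. Same-numbered arrays deviated from their group means with a correlation of 0.227, too few pairs (2) to treat the numbers as pairing. The block called 0 of the 11 jasmonate genes. Without moderation 0 were higher and 0 lower (2580 with an unadjusted p under 0.05), and at a limma adjusted p threshold of 0.01 also 0 and 0 (3902), while probe sets matching 1 gene alone, fewer in number, gave 172 and 101. With 1 array left out, 0 to 734 probe sets were higher, 0 to 458 were lower, and 0 to 3 jasmonate genes were higher. The 0 for probe sets came without either dexamethasone array, where 2672 and 2448 had an unadjusted p under 0.05. Any fit with 1 array left out takes the spread of the single array left from the other group.

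Of 46 other named genes 14 changed sign in some setting, and none of those 14 was called with all 4 arrays. The difference of EXPA18 was -1.37 without untreated replicate 1, and that of AT4G28140 was -1.43 without untreated replicate 2. Leaving out 1 array gave -0.035 to 0.097 for JMT, -0.17 to 0.26 for MYC3, -0.16 to 0.25 for PDF1.2, -0.12 to 0.19 for THI2.1 and -0.0015 to 0.49 for AT1G19210. It gave -0.42 to 0.18 for CLV3, -0.14 to 0.0035 for YAB3, -1.37 to 0.23 for EXPA18, -0.36 to 0.35 for PYK10, -0.059 to 0.036 for AGL42 and -0.032 to 0.095 for LHCB4.1. It gave -1.43 to 0.052 for AT4G28140, -1.21 to 0.0024 for AT1G10770 and -1.19 to 0.12 for petL. A further quantile normalization gave 0.013 for PYK10 and -0.013 for LHCB4.1. What caused these changes was not tested.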
